A study of Drosophila melanogaster with 13 samples.

Results

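The translation initiation factor genes of Drosophila melanogaster were followed in identified larval motoneurons. They were taken as the rows of the deposited count table whose FlyBase symbol starts with eIF, which gave 44 of the 17753 genes in the table. The cells were MN1-Ib motoneurons, a body wall motoneuron of the larva, aspirated with a patch pipette from larvae of instar 3, and each of the 13 libraries pooled 4 to 8 cells from 1 or 2 larvae. All larvae, controls included, carried the MN1-Ib-GAL4 driver and UAS mCD8:GFP, a membrane-bound fluorescent protein, so the RNAi constructs were expressed where this driver is on. In the group called Notch+Shal RNAi (3 libraries) the driver expressed RNAi against Notch, a cell surface receptor, together with RNAi against Shal, a voltage-gated potassium channel. Notch RNAi (4 libraries) carried RNAi against Notch alone, Shal RNAi (3 libraries) carried RNAi against Shal alone, and Control (3 libraries) carried GFP without RNAi. The design thus asks how the cells differ with RNAi against a potassium channel, against Notch and against both.

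Eukaryotic initiation starts when eIF2 carries the initiator tRNA to the small ribosomal subunit, helped by eIF1, eIF1A, eIF5 and the many-subunit scaffold eIF3. The mRNA is brought in by the cap-binding protein eIF4E, the scaffold eIF4G and the helicase eIF4A, and the large subunit joins with eIF5B. The exchange factor eIF2B recharges eIF2 and is the step at which stress kinases slow translation, while neurons also use control at the cap to make proteins at synapses.

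The libraries held 3783100 to 9319116 counts each, and a count of 3, the floor used here, corresponded to 0.322 to 0.793 CPM, the counts of a gene scaled to a common library total. VGlut, the vesicular glutamate transporter, taken here as a marker of motoneurons, was detected in every library, at 401 to 2841 CPM, and the cholinergic gene ChAT reached at most 0.244 CPM. Of the GABAergic genes, VGAT had counts in 12 libraries and reached 62.7 CPM in Notch RNAi replicate 1, and Gad1 reached 14.5 CPM in Notch RNAi replicate 2. Transcripts of other tissues were present too. The 6 fat body genes summed to 1421 to 18399 CPM, the 5 muscle genes to 96.5 to 1841 CPM, the 3 hemocyte genes to 0.266 to 359 CPM, and the 5 glial genes to 16.3 to 757 CPM. The glial genes differed: repo was at no more than 2.44 CPM and alrm at 0, while Gs2 was at 16.3 to 755 CPM. In Shal RNAi replicate 3 moody reached 76.6 CPM and Eaat1 61.9 CPM, the highest values of both. The targeted transcripts overlapped Control in the groups named after them. Shal was at 77.2, 37.8 and 20.5 CPM in the libraries labelled Notch+Shal RNAi and at 53.3, 112 and 135 CPM in those labelled Shal RNAi, against 5.10, 95.0 and 45.4 CPM in Control. Notch was at 16.3, 20.4 and 329 CPM in those labelled Notch+Shal RNAi and at 23.6, 19.4, 20.9 and 294 CPM in those labelled Notch RNAi, against 31.5, 28.8 and 229 CPM in Control. In 2 of 3 Notch+Shal RNAi libraries and 3 of 4 Notch RNAi libraries Notch was thus below every Control library, while Notch+Shal RNAi replicate 3 and Notch RNAi replicate 4 were above every Control library. The fitted log2 fold changes against Control were -0.05 for Shal and 0.64 for Notch in Notch+Shal RNAi, -0.16 for Notch in Notch RNAi and 1.72 for Shal in Shal RNAi, and none passed the adjusted test in edgeR. The group names below are therefore those of the labels. Shal RNAi replicates 1 and 3 stood apart: mitochondrially encoded genes took 13.5% and 11.5% of their counts, against 0.893% to 5.83% in the other 11 libraries.

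Of the 44 genes, 34 had counts in all 13 libraries, and the other 10 are named with the second gene copies. Levels of different genes were compared per kilobase of exon, since a longer transcript gives more fragments. On that scale eIF1, which keeps the scanning ribosome from starting at wrong codons, was the highest, with a mean of 1723 CPM per kilobase over the 13 libraries. It was followed by the helicase eIF4A at 469, the eIF3 subunits eIF3k at 390.5 and eIF3i at 323, and eIF1A, the partner of eIF1, at 321 CPM per kilobase. This order was not the same in every group. In Control eIF3k, at 525, and eIF3i, at 470.2, came before eIF4A at 464.6, and eIF3m, at 446, before eIF1A at 350 CPM per kilobase. Without Notch+Shal RNAi replicate 2, which held the highest eIF4A, the mean of eIF4A was 383, below eIF3k at 393 CPM per kilobase. eIF5, which makes eIF2 hydrolyse its GTP when the start codon is found, was the lowest of the factors that have a general role and was 39th of 44, with a mean of 1.40 CPM per kilobase.

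**Figure D1:**
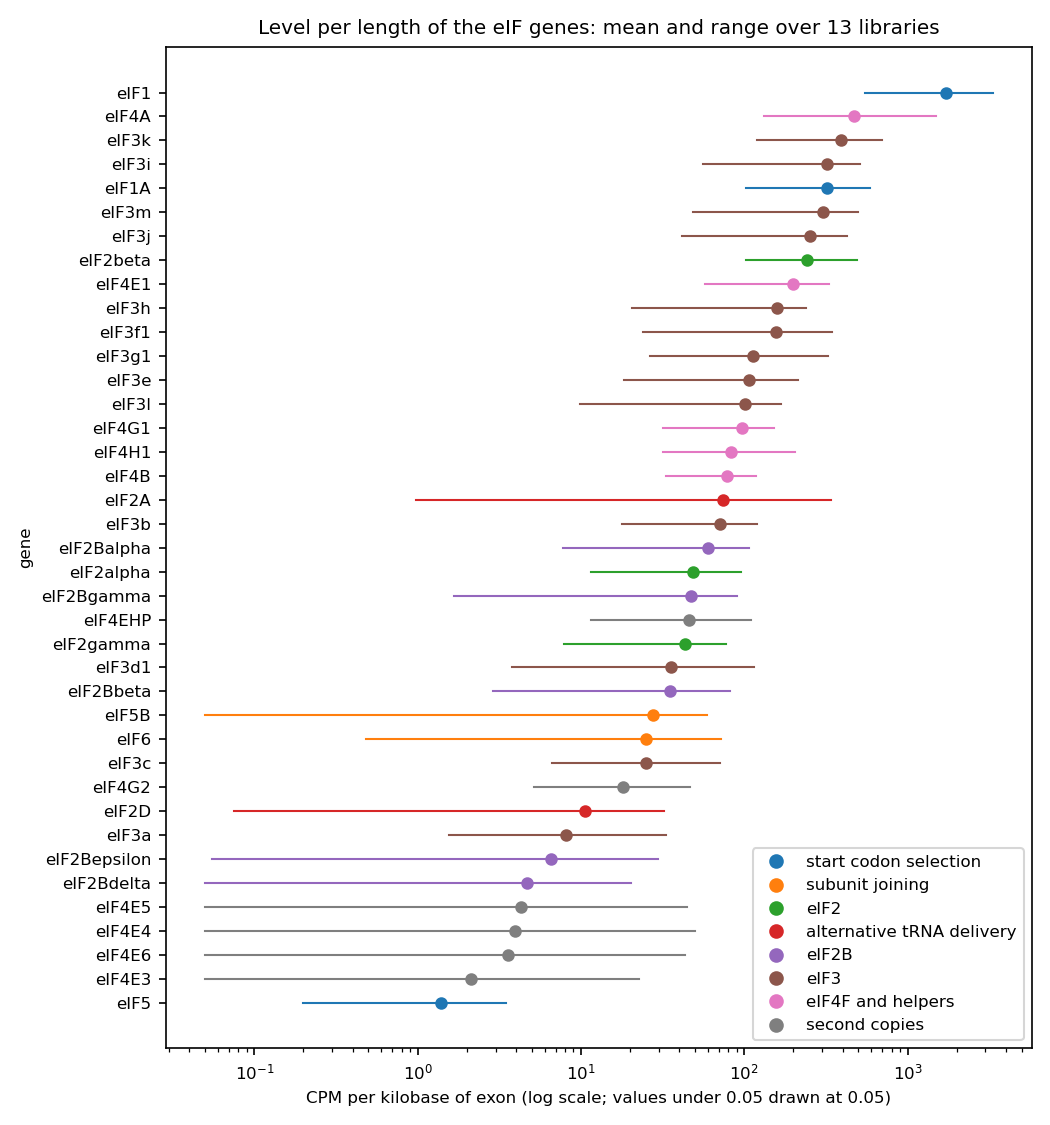
Mean (dot) and range (line) over the 13 libraries of the level of each gene, in CPM per kilobase of exon on a log axis, coloured by role. The 39 genes with a mean above 0.5 are drawn, from eIF1 at 1723 down to eIF5 at 1.40 CPM per kilobase.

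Within complexes the levels per kilobase were far from equal. The 3 subunits of eIF2, which are needed in equal number, averaged 243 CPM per kilobase for eIF2beta, 48.3 for eIF2alpha, the subunit that stress kinases phosphorylate, and 43.5 for eIF2gamma, the subunit that binds GTP. The 5 subunits of eIF2B ran from eIF2Balpha at 60.2 CPM per kilobase to eIF2Bdelta at 4.71, with the catalytic subunit eIF2Bepsilon at 6.56. The 13 subunits of eIF3 ran from eIF3k at 390.5 to eIF3a, its largest subunit, at 8.12 CPM per kilobase. The long transcripts of a complex were often the low ones: eIF3a has 3892 exon bases and eIF3c 3321, against 853 in eIF3k.

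**Figure D2:**
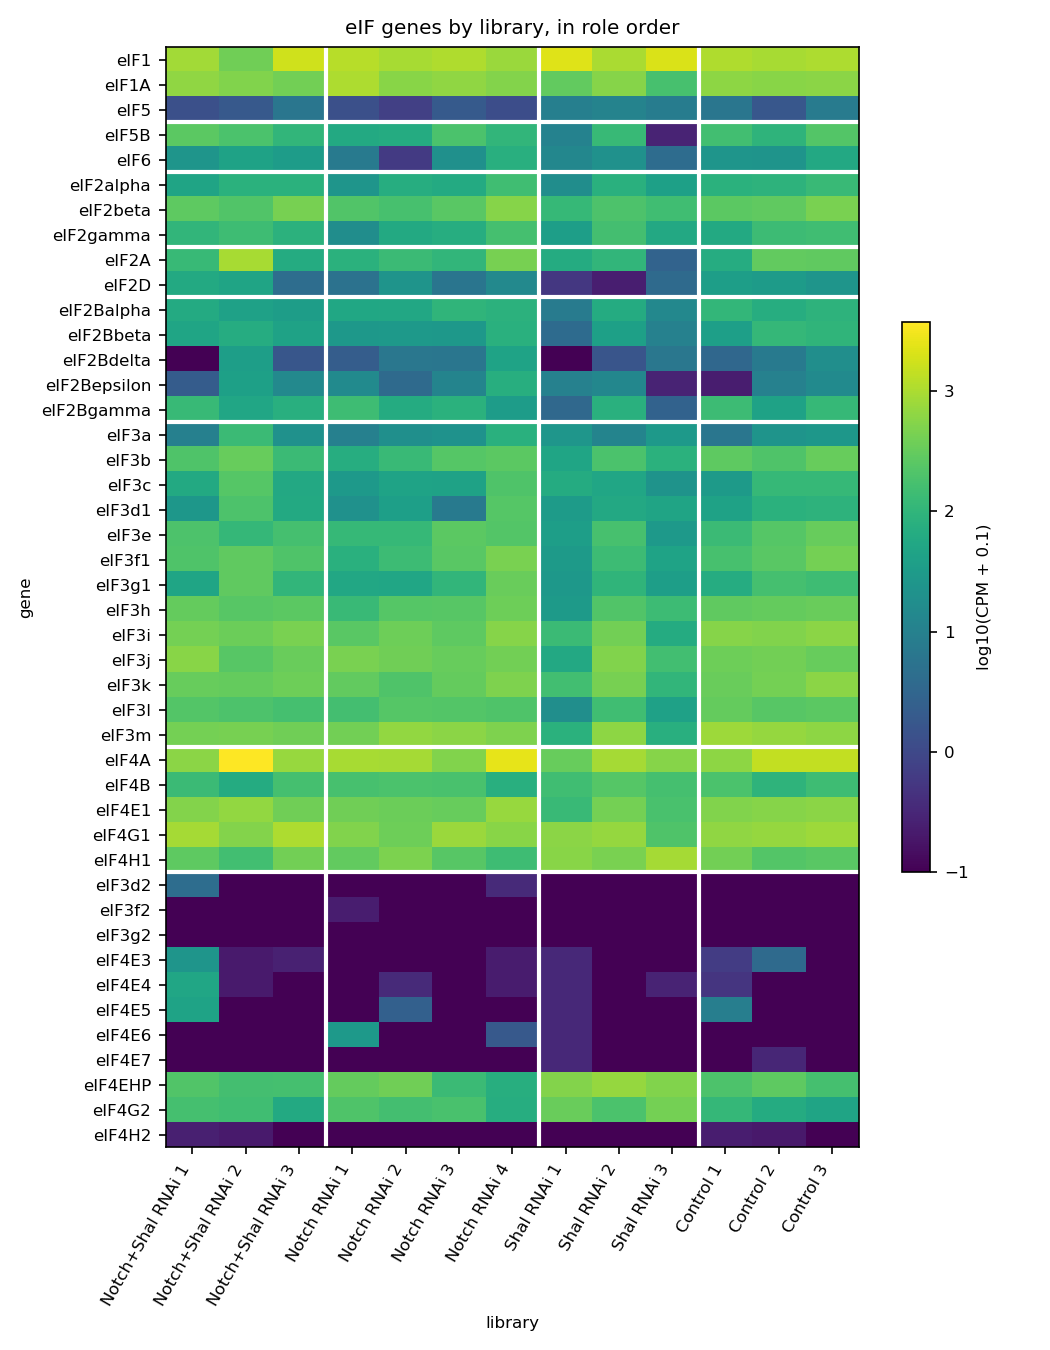
Level of each of the 44 genes (rows, grouped by role from start codon selection at the top to the second copies at the bottom) in each library (columns), as log10 of CPM plus 0.1. The upper groups are filled in nearly every library, the second copies other than eIF4EHP and eIF4G2 are near the floor, and many upper rows are darker in Shal RNAi replicates 1 and 3.

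No gene passed an adjusted p of 0.05 in any of the 6 comparisons fitted by edgeR's quasi-likelihood test over all 13 libraries, so that 0 of 8908 tested genes (0.00%) and 0 of the 36 tested eIF genes were called in each. The sixth comparison is the interaction, which asks whether adding Notch RNAi changes the cells differently with and without Shal RNAi. Libraries of a group differed widely, with a median biological coefficient of variation of 1.17 over the tested genes. In data simulated with each gene's estimated spread for Shal RNAi against Control, 14% of 8-fold changes were found. The changed genes were drawn at random from all tested genes, so this share does not describe the eIF genes alone. All changes below are therefore values that failed the adjusted test unless another fit is named. With 3 libraries against 3, an exact permutation test cannot give a p below 0.1, and with 4 against 3 the smallest p is 0.0571.

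The comparison of the libraries labelled Shal RNAi with Control asks what RNAi against the channel does to the cell. The eIF genes with the lowest p on the higher side were 3 genes that act at the cap, eIF4G2, eIF4EHP and eIF4H1. Genes of the cap did not all go this way. Of the 5 genes eIF4A, eIF4B, eIF4E1, eIF4G1 and eIF4H1, 3 had a higher and 2 a lower fitted value. The helicase eIF4A was at 329, 895 and 560 CPM in Shal RNAi, against 624, 1443 and 1390 CPM in Control, where the groups overlap. eIF4G2, a second gene for the eIF4G scaffold known in flies for its role in the male germ line, was at 335, 187 and 421 CPM in Shal RNAi, against 109, 63.8 and 47.1 CPM in Control. The groups did not overlap, but the 3 Shal RNAi values differed more among themselves than the lowest of them differed from the highest Control value. The fitted log2 fold change was 2.88 (SE 0.73), with an adjusted p of 0.161 and an exact permutation p of 0.1.

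eIF4EHP, a cap-binding protein that does not bind eIF4G and represses the mRNAs it sits on, was at 525, 707 and 505 CPM in Shal RNAi, against 196, 279 and 164 CPM in Control. The 3 Shal RNAi libraries were also above every Notch RNAi and Notch+Shal RNAi library for this gene, whose highest value was 384 CPM in Notch RNAi 2. Its log2 fold change was 2.10 (SE 0.67), with an adjusted p of 0.211 in edgeR. eIF4H1, an RNA-binding partner that helps the helicase eIF4A, was at 573, 446 and 903 CPM in Shal RNAi, against 397, 220.3 and 256 CPM in Control, a log2 fold change of 1.91 (SE 0.68) with an adjusted p of 0.266. For this gene 1 library of Notch RNAi, at 475 CPM, reached into the Shal RNAi range.

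The usual counterparts of these genes differed from one another. eIF4E1, the main cap-binding protein, was at 128, 406 and 182 CPM in Shal RNAi, against 511, 551 and 606 CPM in Control, so that the groups did not overlap in the other direction. The CPM of eIF4EHP divided by that of eIF4E1, a ratio that no scaling between libraries can move, was 4.11, 1.74 and 2.77 in Shal RNAi, against 0.383, 0.507 and 0.270 in Control. In Notch+Shal RNAi this ratio was 0.233 to 0.441 and in Notch RNAi 0.0997 to 1.09, so that only in the 3 Shal RNAi libraries did it exceed 1.09. The main scaffold eIF4G1 was at 588, 716 and 208 CPM in Shal RNAi, against 640.3, 710.3 and 782 CPM in Control, with a log2 fold change of 0.15. eIF4B, the other helper of the helicase, was at 148, 228 and 169 CPM in Shal RNAi, against 187, 93.9 and 140.3 CPM in Control, where the groups overlap. With CPM on library sizes scaled by the TMM factors it was higher in all 3 Shal RNAi libraries, and its fitted log2 fold change was 1.03 (SE 0.66), with an adjusted p of 0.532. eIF4H1 over eIF4B was 3.88, 1.95 and 5.33 in Shal RNAi, against 2.13, 2.35 and 1.83 in Control, where replicate 2 lay inside the Control range. eIF4G2 over eIF4G1 was 0.570, 0.262 and 2.03 in Shal RNAi, against 0.171, 0.0899 and 0.0602 in Control. This ratio reached 0.275 in Notch+Shal RNAi and 0.442 in Notch RNAi, above Shal RNAi replicate 2.

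**Figure D3:**
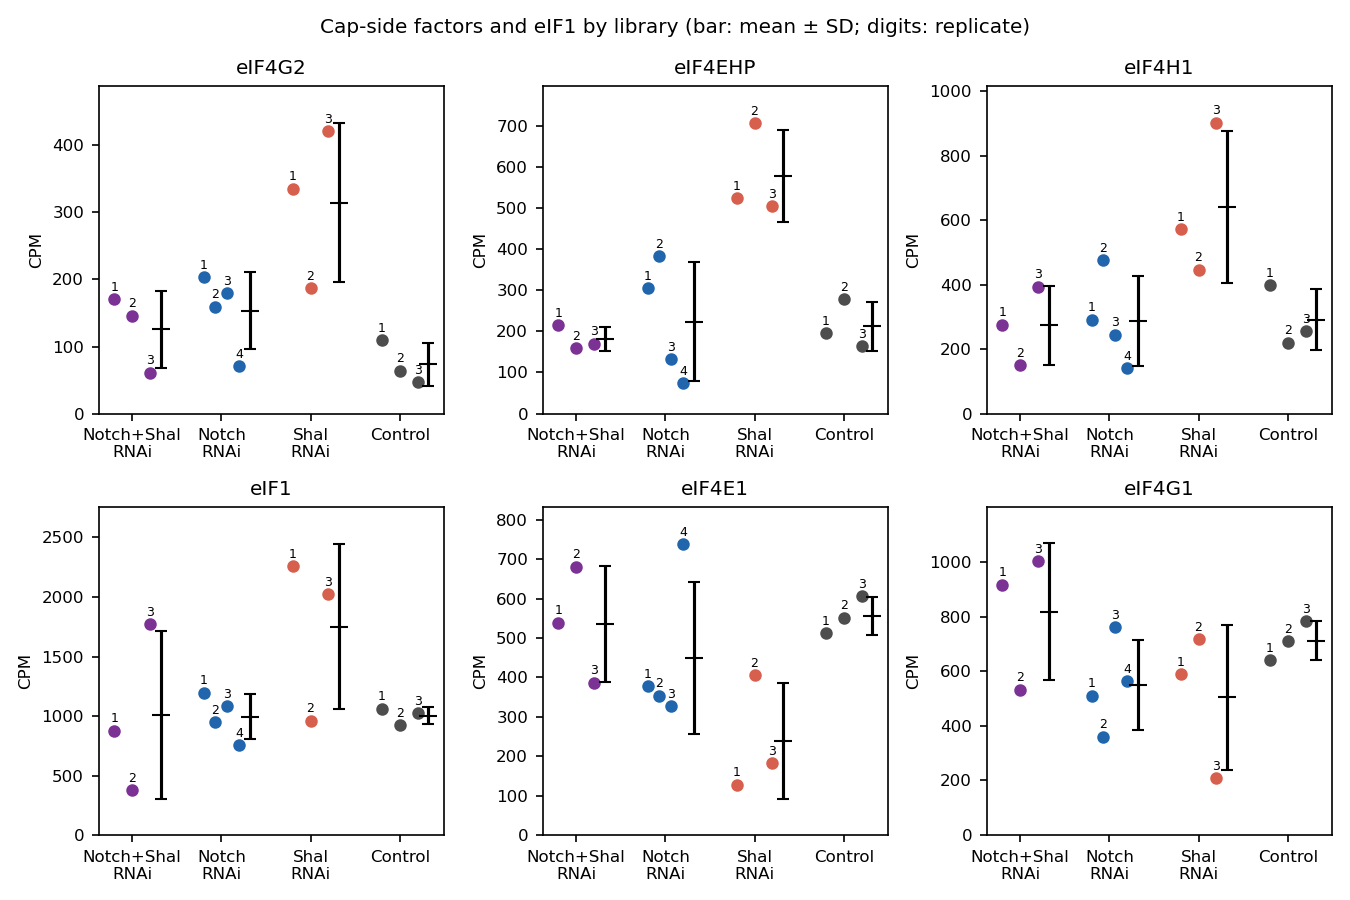
CPM per library (points, with the replicate number) and mean ± SD (bars) of 6 genes, by group. eIF4G2, eIF4EHP and eIF4H1 are higher in all 3 Shal RNAi libraries than in all 3 Control libraries, eIF4E1 is lower in all 3, and eIF1 and eIF4G1 overlap.

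The calls on eIF4G2 and eIF4EHP depended on the test. DESeq2 gave an adjusted p of 0.00240 for eIF4G2 and 0.0330 for eIF4EHP in this comparison, and limma voom with quality weights gave 0.0428 for eIF4G2. Without Shal RNAi replicates 1 and 3, which leaves 1 library in the group, the log2 fold changes were 1.50 for eIF4G2, 1.88 for eIF4EHP and 0.77 for eIF4H1. Over leaving out each of the 13 libraries in turn, edgeR's adjusted p ran from 0.0294 (without Shal RNAi replicate 2) to 0.590 for eIF4G2, from 0.0979 to 0.645 for eIF4EHP and from 0.0802 to 0.798 for eIF4H1.

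eIF4G2 and eIF4EHP lie on the same chromosome arm with 244 kilobases between them, and eIF4H1 lies on another chromosome. In the BDGP6.54 annotation eIF4G2 runs from 23808285 to 23819237 on the minus strand of 3R, eIF4EHP from 24063077 to 24108960 on the minus strand of 3R, and eIF4H1 from 16448665 to 16454972 on the plus strand of X. They are long for this family: among the 44 genes eIF4G2 has the most exon bases, eIF4EHP is 3rd and eIF4H1 4th. Over the 36 tested genes the log2 fold change of Shal RNAi against Control had a Spearman correlation of 0.408 with exon length, and the part of length in the result was not tested. Of the exon bases of eIF4EHP, 6.96% are shared with Syx1A, a syntaxin of the synapse on the same strand, so reads there could belong to either gene. Syx1A itself was at 853, 2671 and 1578 CPM in Shal RNAi, against 1294, 1774 and 631 CPM in Control, where the groups overlap. For eIF4G2, 8.56% of exon bases are shared with CG33111, which had at most 46.3 CPM in any library, and eIF4H1 shares none with another counted gene.

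Most other eIF genes had lower fitted values in Shal RNAi. Of the 36 tested, 11 had a fold change above 1 and 25 below, with a median log2 fold change of -0.60, beside -0.27 over all 8908 genes. At an unadjusted p under 0.05 there were 4 higher (11.1%, beside 8.03% of all genes) and 3 lower (8.33%, beside 3.72% of all genes). In CPM, 4 genes were higher in Shal RNAi without overlap of the groups (11.1%, beside 3.38% of all genes) and 12 were lower (33.3%, beside 16.9%). With CPM on library sizes scaled by the TMM factors, 5 genes were higher without overlap (13.9%, beside 6.50%) and 9 lower (25%, beside 11.3%). Both shares of lower genes are about 2 times that of all genes, and the scaling sets how many there are. Such a share was not particular to the eIF genes. In CPM 18 of 34 tested proteasome genes and 36 of 85 cytoplasmic ribosomal protein genes were lower without overlap, and 0 of either set were higher. TMMwsp, another scaling, gave a median of -0.02 over all genes and of -0.35 over the eIF genes, of which 14 were then higher and 22 lower. Leaving out Shal RNAi replicate 1 moved the eIF median to -0.40, and leaving out Shal RNAi replicate 2 moved the median of all genes to -0.77, level with that of the eIF genes. The 7 of 36 eIF genes with an unadjusted p under 0.05 became 4 of 38 without replicate 1, 13 of 38 without replicate 2 and 5 of 38 without replicate 3. The count over all genes moved the same way. It was 715 higher and 331 lower of 8908 with all libraries. Without replicate 1 it was 558 and 205 of 9746, without replicate 2 1041 and 578 of 9708, and without replicate 3 483 and 122 of 9743.

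The scaffold complex eIF3, the one with the most subunits, was among the groups with lower values. Summed over its 13 subunits it stood at 741, 3060.5 and 865 CPM in Shal RNAi, against 3382, 3637 and 4181 CPM in Control. Shal RNAi replicate 2 lay close to Control, while replicates 1 and 3 were lower than every other library. Of the subunits 11 had a lower fitted value in Shal RNAi and 2 a higher one, the median log2 fold change being -0.75, and with TMMwsp 9 were lower, with a median of -0.49. eIF3l was at 18.0, 148 and 41.2 CPM in Shal RNAi, against 308, 238 and 266 CPM in Control, with a log2 fold change of -1.50 (SE 0.64) and an adjusted p of 0.374. eIF3f1 was at 31.2, 134 and 44.7 CPM in Shal RNAi, against 176, 255 and 409.6 CPM in Control, with a log2 fold change of -1.45 (SE 0.66) and an adjusted p of 0.405. The large subunit eIF3a went the other way without passing the test, at 24.7, 11.7 and 28.8 CPM in Shal RNAi, against 6.04, 23.6 and 26.0 CPM in Control.

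The low eIF3 level came with other features of the same libraries. For 8 of the 13 subunits Shal RNAi replicates 1 and 3 were the 2 lowest of all 13 libraries. Genes of the proteasome, which like eIF3 is a many-subunit complex of every cell, had summed levels of 2682, 9088 and 2293 CPM in Shal RNAi, against 8565 to 15804 CPM in the other 10 libraries. These 2 replicates also had the highest mitochondrial share, and TMM factors of 0.568 and 0.620, beside 0.935 to 1.41 in the other 11. Their 7698 and 7364 detected genes did not set them apart, since Notch RNAi replicate 1, at 7579, lay between them. The part of these features in the eIF3 result was not tested. Without the 2 replicates the median log2 fold change of the eIF3 subunits was -0.30, in 1 Shal RNAi library against 3 Control libraries. In these pooled cells, fewer cells that yielded RNA and less RNA per cell cannot be told apart. CPM is a share of the counts of a library and measures neither.

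**Figure D4:**
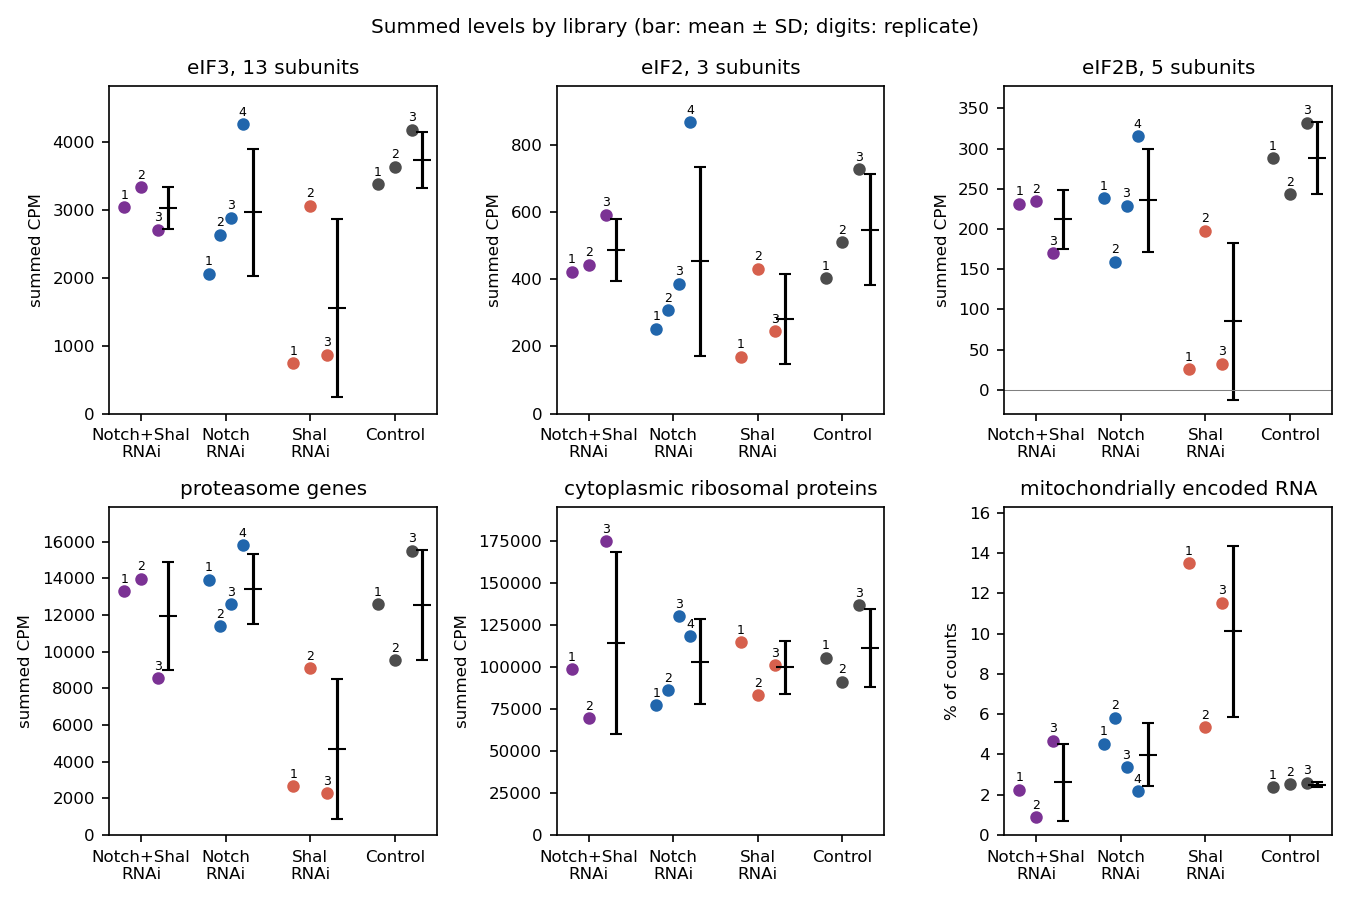
Summed CPM of 3 initiation complexes, of the proteasome genes and of the cytoplasmic ribosomal protein genes, and the share of counts from mitochondrially encoded genes, per library (points, with the replicate number) with mean ± SD (bars). Shal RNAi replicates 1 and 3 are low for eIF3, eIF2B and the proteasome and high for mitochondrial RNA, while replicate 2 is near the other groups.

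In CPM the factors that deliver the initiator tRNA, and the exchange factor eIF2B, had low values in the same 2 libraries. eIF2 summed over its 3 subunits to 169, 432 and 246 CPM in Shal RNAi, against 404, 511 and 729 CPM in Control, and eIF2B to 25.4, 198 and 32.7 CPM, against 288, 243 and 332 CPM in Control. With TMM-scaled CPM eIF2 was at 298, 414 and 396 in Shal RNAi, against 373, 454 and 583 in Control. Shal RNAi replicates 2 and 3 then lay inside the Control range, and Notch RNAi replicate 1, at 271, was below every Shal RNAi library. On that scale eIF2B was at 44.7, 190 and 52.7 in Shal RNAi, against 266, 216 and 266 in Control. For eIF2B the groups did not overlap, and 4 of its 5 subunits had a lower fitted value, with a median log2 fold change of -1.15, below that of eIF3. eIF2D was different in that all 3 Shal RNAi libraries were low. This factor, which can place tRNA in the ribosome without GTP, was at 0.462, 0.139 and 3.69 CPM in Shal RNAi, against 35.8, 31.8 and 24.1 CPM in Control. Shal RNAi replicates 1 and 2 held no more than the floor of 3 counts for it. Its log2 fold change was -3.88 (SE 1.53), with an adjusted p of 0.331, and it was -7.47 without replicates 1 and 3, where it rests on the 1 count of replicate 2. eIF2D shares 6 exon bases, on the other strand, with Pglym78.

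eIF2A, which can also bring in initiator tRNA on its own, was at 65.1, 101 and 2.77 CPM in Shal RNAi, against 67.5, 295 and 284 CPM in Control, where the groups overlap. eIF5B, the GTPase of subunit joining, was at 10.4, 118 and 0.185 CPM in Shal RNAi, against 154, 95.2 and 221 CPM in Control. eIF1 was at 2261, 961 and 2025 CPM in Shal RNAi, against 1062, 922 and 1022 CPM in Control, so that Shal RNAi replicate 2 lay inside the Control range. Its log2 fold change was 1.64 (SE 0.66), with an adjusted p of 0.338, while its partner eIF1A was at 301, 553 and 177 CPM in Shal RNAi, against 618, 583 and 608 CPM in Control. In CPM eIF1A was thus lower without overlap, but with TMM-scaled CPM the groups overlapped, and its log2 fold change was -0.23 (SE 0.57). The low factor eIF5 was at 9.23, 11.1 and 8.12 CPM in Shal RNAi, against 6.17, 1.61 and 7.87 CPM in Control, without overlap but by a narrow gap.

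Comparing Notch+Shal RNAi with Shal RNAi asks what Notch RNAi adds to cells with Shal RNAi. The 3 genes named first above, eIF4EHP, eIF4G2 and eIF4H1, were lower in the libraries labelled with both constructs. eIF4EHP was at 216, 159 and 170.5 CPM in Notch+Shal RNAi, against 525, 707 and 505 CPM in Shal RNAi, a log2 fold change of -2.27 (SE 0.68) with an adjusted p of 0.245 in edgeR and 0.0219 in DESeq2. eIF4G2 was at 170.4, 146 and 60.8 CPM in Notch+Shal RNAi, against 335, 187 and 421 CPM in Shal RNAi, with a log2 fold change of -2.09 (SE 0.71) and an adjusted p of 0.276. eIF4H1 was at 276, 151 and 393 CPM in Notch+Shal RNAi, against 573, 446 and 903 CPM in Shal RNAi, with a log2 fold change of -1.88 (SE 0.68) and an adjusted p of 0.301. For all 3 genes the groups did not overlap and the exact permutation p was 0.1. Of eIF4A, eIF4B, eIF4E1, eIF4G1 and eIF4H1, 3 had a higher and 2 a lower fitted value. eIF4E1 was at 538, 680 and 386 CPM in Notch+Shal RNAi, against 128, 406 and 182 CPM in Shal RNAi. eIF4A was at 605, 3729 and 721 CPM, against 329, 895 and 560 CPM, and for both genes the groups overlap in CPM. This comparison shares its Shal RNAi libraries with the one against Control, so the 2 are not independent.

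The higher genes in Notch+Shal RNAi were those low in Shal RNAi. eIF2D was at 59.1, 47.4 and 4.17 CPM in Notch+Shal RNAi, against 0.462, 0.139 and 3.69 CPM in Shal RNAi, with a log2 fold change of 4.16 (SE 1.51) and an adjusted p of 0.301. Notch+Shal RNAi replicate 3 was close to the highest Shal RNAi library for this gene. eIF2A was at 119, 959 and 65.3 CPM in Notch+Shal RNAi, against 65.1, 101 and 2.77 CPM in Shal RNAi, and its log2 fold change of 2.13 (SE 0.91), with an adjusted p of 0.354, was 0.31 without Notch+Shal RNAi replicate 2. eIF5B was at 263, 191 and 101 CPM in Notch+Shal RNAi, against 10.4, 118 and 0.185 CPM in Shal RNAi, with a log2 fold change of 1.77 (SE 0.84) and an adjusted p of 0.399. Of the 36 tested genes 29 were higher and 7 lower, with a median log2 fold change of 0.59, beside 0.38 over all genes. With TMMwsp 25 were higher and 11 lower, with medians of 0.37 and 0.15. The eIF median was 0.31 without Notch+Shal RNAi replicate 2 and 0.90 without Shal RNAi replicate 2, beside 0.15 and 0.91 over all genes.

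In CPM, 7 genes were higher in Notch+Shal RNAi than in Shal RNAi without overlap (19.4%, beside 10.0% of all genes) and 4 were lower (11.1%, beside 2.59%). With TMM-scaled CPM these were 4 higher (11.1%, beside 7.45%) and 5 lower (13.9%, beside 4.24%), eIF4B joining the lower ones. At an unadjusted p under 0.05 there were 3 higher (beside 5.59% of all genes) and 4 lower (beside 6.70%). All 13 eIF3 subunits had a higher fitted value in Notch+Shal RNAi, with a median log2 fold change of 0.62, where the summed level was 3041, 3335 and 2708 CPM, against 741, 3060.5 and 865 CPM in Shal RNAi. Shal RNAi replicate 2 thus lay among the Notch+Shal RNAi libraries, and without replicates 1 and 3 the median was 0.28, with 5 of the 13 subunits lower.

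**Figure D5:**
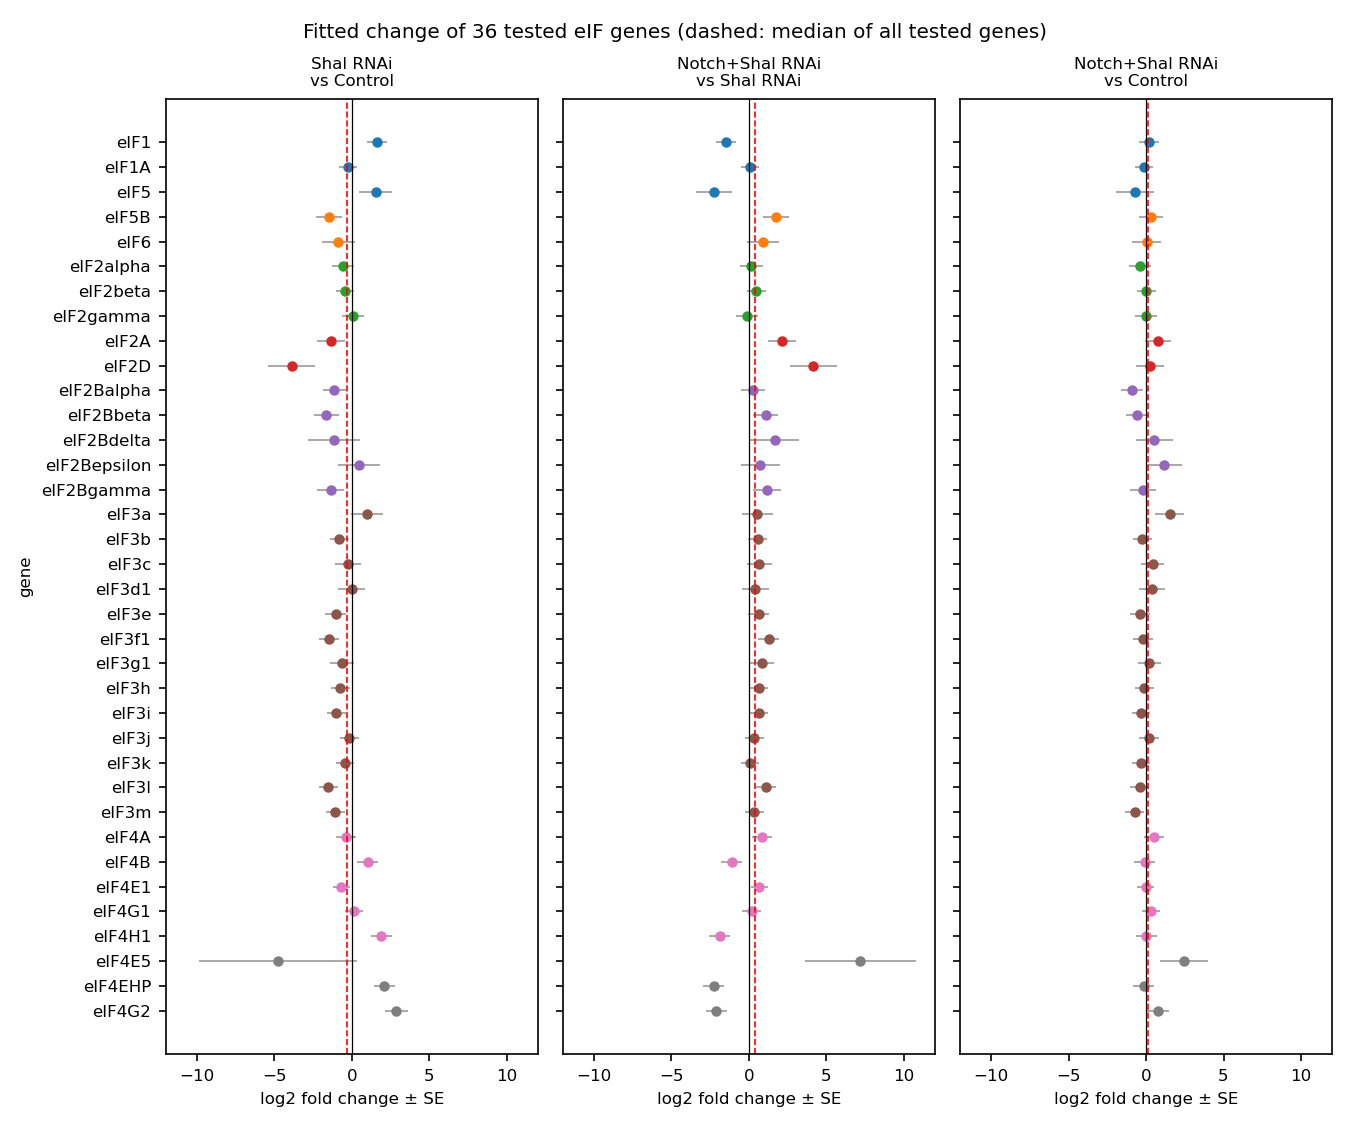
Fitted log2 fold change ± SE of the 36 tested genes in Shal RNAi against Control, Notch+Shal RNAi against Shal RNAi and Notch+Shal RNAi against Control, in role order, with the median of all tested genes as a dashed line. The first 2 panels share the Shal RNAi libraries, and no gene passed the adjusted test in any panel.

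Between the libraries labelled Notch+Shal RNAi and Control the fitted changes of the eIF genes went both ways. Of the 36 tested genes 18 were higher and 18 lower, with a median log2 fold change of 0.01, beside 0.11 over all genes, and none had an unadjusted p under 0.05 (2.73% of all genes higher and 1.59% lower had). In data simulated for this comparison 10% of 8-fold changes were found, again in genes drawn from all tested genes and not from the eIF genes. The summed eIF3 level was 3041, 3335 and 2708 CPM in Notch+Shal RNAi, against 3382, 3637 and 4181 CPM in Control. Summed eIF2B was 232, 234 and 170 CPM in Notch+Shal RNAi, against 288, 243 and 332 CPM in Control. Both complexes were thus below every Control library, also with TMM-scaled CPM, where the highest Notch+Shal RNAi value was 2833 for eIF3 and 211 for eIF2B, against a lowest Control value of 3124 and 216. In CPM no gene was higher without overlap (beside 2.01% of all genes) and 4 genes, eIF2Balpha, eIF3i, eIF3l and eIF3m, were lower in Notch+Shal RNAi without overlap (11.1%, beside 4.00% of all genes), and with TMM-scaled CPM 3 were (8.33%, beside 3.48%), eIF3i being lost, and none was higher (beside 2.47%). eIF2Balpha, a regulatory subunit of eIF2B, was at 62.3, 40.8 and 35.5 CPM in Notch+Shal RNAi, against 108, 71.4 and 88.4 CPM in Control, with a log2 fold change of -0.89 (SE 0.72). eIF3m was at 408, 438 and 387 CPM in Notch+Shal RNAi, against 788, 712 and 628 CPM in Control, with a log2 fold change of -0.73 (SE 0.62), and eIF2Bbeta had -0.56 (SE 0.74).

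On the higher side of this comparison the value of eIF3a rested on 1 library. It was at 9.50, 129.6 and 20.1 CPM in Notch+Shal RNAi, against 6.04, 23.6 and 26.0 CPM in Control, and its log2 fold change of 1.51 (SE 0.96) was -0.14 without Notch+Shal RNAi replicate 2. The same library held the highest eIF4A of all, at 3729 CPM, and the highest eIF2A, at 959 CPM. eIF4G2 was at 170.4, 146 and 60.8 CPM in Notch+Shal RNAi, against 109, 63.8 and 47.1 CPM in Control, with a log2 fold change of 0.79 (SE 0.70). Notch+Shal RNAi replicates 1 and 2 were above every Control library for it, and replicate 3 was inside the Control range. The adjusted p was 1.0 for each of these genes in edgeR.

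In Notch RNAi against Control, which asks what RNAi against Notch alone does, 12 of the 36 tested genes were higher and 24 lower, with a median log2 fold change of -0.24, beside 0.03 over all genes. The eIF median ran from -0.42 without Notch RNAi replicate 4 to -0.02 without Control replicate 3. It was -0.13 without Notch RNAi replicate 2, -0.14 without Notch RNAi replicate 1 and -0.09 with TMMwsp, where 15 were higher and 21 lower. None had an unadjusted p under 0.05 (1.90% of all genes higher and 2.42% lower had). eIF4G2 was again the first on the higher side, at 203, 159, 180.0 and 71.0 CPM in Notch RNAi, against 109, 63.8 and 47.1 CPM in Control, with a log2 fold change of 1.20 (SE 0.67) and Notch RNAi replicate 4 inside the Control range. eIF2Bepsilon had a log2 fold change of 1.58 (SE 1.09) and eIF3a of 0.80 (SE 0.93), both with their highest value in Notch RNAi replicate 4. Without that library the values were 0.45 for eIF2Bepsilon and 0.03 for eIF3a. On the lower side stood eIF5, at 1.20, 0.634, 1.85 and 1.10 CPM in Notch RNAi, against 6.17, 1.61 and 7.87 CPM in Control, with a log2 fold change of -2.11 (SE 1.40). eIF2Bbeta followed with -0.96 (SE 0.70) and eIF2D with -1.23 (SE 0.91).

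eIF2D, at 5.18, 22.9, 5.82 and 14.3 CPM in Notch RNAi, against 35.8, 31.8 and 24.1 CPM in Control, and eIF3l were the 2 genes lower without overlap in CPM (5.56%, beside 2.93% of all genes), and no gene was higher without overlap (beside 1.17%). With TMM-scaled CPM the 2 were eIF3h and eIF3i (beside 2.47%), and again none was higher (beside 1.25%). All of these genes had an adjusted p of 0.999 in edgeR. Summed eIF3 was at 2058, 2633, 2885 and 4265 CPM in Notch RNAi, with replicate 4 the highest of all 13 libraries. With TMM-scaled CPM summed eIF3 was at 2202, 2592, 2852 and 3028 in Notch RNAi, against 3124, 3229 and 3342 in Control. On that scale every Notch RNAi library, replicate 4 included, was thus below every Control library.

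Notch+Shal RNAi against Notch RNAi, which asks what Shal RNAi adds to cells with Notch RNAi, gave small median changes. Of the 36 tested genes 23 were higher and 13 lower, with a median log2 fold change of 0.16, beside 0.12 over all genes (19 and 17 with TMMwsp), and none was separated without overlap in either direction (beside 0.943% higher and 0.932% lower of all genes in CPM, and 1.13% and 0.786% in TMM-scaled CPM). The eIF median was 0.45 without Notch RNAi replicate 4 and 0.04 without Notch RNAi replicate 2. eIF2D had a log2 fold change of 1.51 (SE 0.91), eIF2A of 0.99 (SE 0.79), eIF2Balpha of -0.67 (SE 0.69), eIF1A of -0.49 (SE 0.54) and eIF3m of -0.43 (SE 0.58). The value of eIF2A was -0.84 without Notch+Shal RNAi replicate 2. The only gene with an unadjusted p under 0.05 was eIF4E5 (2.78%, beside 3.44% of all genes higher and 1.44% lower), described with the second copies.

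The interaction, the log2 fold change of Notch+Shal RNAi against Shal RNAi less that of Notch RNAi against Control, had its lowest p among these genes at eIF4G2, with a log2 value of -3.30 (SE 0.97) and an adjusted p of 0.451 in edgeR and 0.0371 in DESeq2. eIF4EHP had -2.51 (SE 0.91) and eIF4H1 -2.01 (SE 0.91), while eIF2D had 5.39 (SE 1.77), eIF2A 2.35 (SE 1.19) and eIF5B 2.25 (SE 1.11). For eIF4G2, eIF4EHP and eIF4H1 the fitted level in Notch+Shal RNAi was thus below the sum, on the log2 scale, of the changes in the 2 single RNAi groups, without passing the adjusted test in edgeR. At an unadjusted p under 0.05 there was 1 higher (beside 4.39% of all genes) and 3 lower (8.33%, beside 4.77%).

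Drosophila has second gene copies for several of these factors, 11 of which are in this set. Beside their partners most were at or near the floor: eIF3g2 had no count in any library, eIF3f2 had 1 count in all, eIF4E7 had 3 and eIF4H2 had 4. Only eIF4EHP and eIF4G2 were in all 13 libraries. Their shares differed between groups. By mean level per kilobase, eIF4EHP made up 9.22% of the summed eIF4E-type genes in Notch+Shal RNAi, 14.1% in Notch RNAi and 45.7% in Shal RNAi, against 11.6% in Control, where eIF4E1 made up 86.9%. These are shares of group means, and single libraries entered them. In Notch+Shal RNAi eIF4E3, eIF4E4 and eIF4E5 made up 2.51%, 5.44% and 4.82%, nearly all from replicate 1. In Notch RNAi eIF4E6 made up 4.66%, mostly from replicate 1. eIF4G2 made up 10.0% of the eIF4G pair in Notch+Shal RNAi, 16.8% in Notch RNAi and 31.1% in Shal RNAi, against 6.94% in Control.

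The other copies appeared in single libraries. In Notch+Shal RNAi replicate 1, eIF4E3, a form known from the fly testis, was at 23.7 CPM, eIF4E4 at 51.5 CPM, eIF4E5 at 45.3 CPM and eIF3d2 at 4.16 CPM. In the other 12 libraries they reached at most 3.65 CPM for eIF4E3, 0.402 CPM for eIF4E4, 8.85 CPM for eIF4E5 and 0.244 CPM for eIF3d2. The testis genes can, aly, nht and topi had no count in that library and summed to at most 0.462 CPM in any. eIF4E6 was at 29.9 CPM in Notch RNAi replicate 1, 1.83 CPM in replicate 4 and 0.231 CPM in Shal RNAi replicate 1, and at 0 in the other 10 libraries. For eIF4E5, the only one of these tested, the log2 fold changes of 2.44 (SE 1.57) in Notch+Shal RNAi against Control and 4.39 (SE 1.91) against Notch RNAi rested on that library, and were -7.21 and -5.26 without it. Fitted values of a gene so near 0 depend on the prior count.

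Genes that act on these factors were read beside them. Of 18 tested regulators of initiation, 12 were higher and 6 lower in Shal RNAi than in Control, their median log2 fold change being 0.61, beside -0.27 over all genes, and 3 higher ones had an unadjusted p under 0.05 (16.7%, beside 8.03% of all genes). The first of them was Lk6, the kinase that phosphorylates eIF4E, at 828, 383 and 1314 CPM in Shal RNAi, against 324, 357 and 345 CPM in Control, with a log2 fold change of 2.14 (SE 0.65) and an adjusted p of 0.192. In Notch+Shal RNAi against Shal RNAi Lk6 had -1.56 (SE 0.64), with an adjusted p of 0.341. On the lower side of Shal RNAi against Control stood MCTS1, a partner of DENR in reinitiation, with -1.11 (SE 0.67). In CPM 1 of the 18 regulators was higher in Shal RNAi than in Control without overlap (beside 3.38% of all genes). In the other direction 4 were lower without overlap (beside 16.9% of all genes). NAT1, an eIF4G relative without the eIF4E site, had the lowest p among the higher ones in Notch+Shal RNAi against Control, with 1.31 (SE 0.68), and in Notch RNAi against Control, with 1.03 (SE 0.65). PEK, a kinase that phosphorylates eIF2alpha under stress, had 2.35 (SE 1.05) in Notch+Shal RNAi against Notch RNAi and -1.29 (SE 1.11) in Notch RNAi against Control, with adjusted p of 0.998 and 0.999.

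Among 10 genes of elongation and termination 4 were higher and 6 lower in Shal RNAi than in Control, with a median log2 fold change of -0.17. eEF5, the elongation factor formerly named eIF5A, had 1.19 (SE 0.66) and the release factor eRF1 -1.08 (SE 0.67). eRF3, the GTPase partner of eRF1, had 1.93 (SE 0.80) in Notch+Shal RNAi against Control, with an unadjusted p of 0.0239 and an adjusted p of 1.0. None of the listed genes was called in any of the 6 comparisons in edgeR.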

How the data were processed

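Per the labels' protocols, cDNA of MN1-Ib motoneurons was made with template switching and PCR amplification and sequenced as paired reads of 100 bases. The authors deposited 1 table of raw counts for each gene and library, whole numbers with no normalization. The submitters' processing notes name BDGP6, R 3.6.1, limma 3.40.6, edgeR 3.26.7 and STAR 2.7.0e, without their roles. Strand setting, annotation release and duplicate handling: not given in the sources used here. In the protocols no molecular identifier is described, so floors cover counting error only. Of the 44 members, 16 overlap exons of another counted gene, 13 of them antisense and 3 in the same sense.

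Symbols came from FlyBase names (17626 IDs matched, 127 did not), and exon lengths and positions from the BDGP6.54 annotation. In FlyBase symbols eIF5A is eEF5, so it is not a member. CPM used the library total. Genes were tested with edgeR 4.0.16 (TMM factors, filterByExpr, robust glmQLFit with legacy=FALSE, glmQLFTest, 2-sided, no covariates) in R 4.3.3 over all 13 libraries, with Benjamini-Hochberg adjustment over 8908 genes at 0.05. Of the members 36 passed the filter on low counts. The SE is the size of the log2 fold change over the square root of F. The first run used the classic quasi-likelihood fit, edgeR's default. After its results were seen, the main fit was set to legacy=FALSE to match earlier processing of these data, and the classic fit became an added alternative. Neither called a gene. Alternatives were RLE and TMMwsp factors, no filter, DESeq2 1.42.0, limma 3.58.1 voom with and without quality weights, a replicate block, only the groups compared, and leaving out libraries. Single genes were also tested by exact 2-sided permutation of normalised CPM in scipy 1.17.1. The fit was tested on simulated data. Proteasome and ribosomal protein genes were taken by symbol.

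The members, role groups and gene lists were chosen with earlier results of these data known. Genes named for a change are up to 3 members a direction with the lowest p in each comparison, and 1 a direction in each list. Members such as eIF1, eIF3a and eIF4E1, beyond this rule, are given by their levels. Libraries are separate reactions, but nothing says which larvae differ between them, so the spread behind each p-value may in part be technical.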

Additional observations from a re-analysis of the deposited data

Results flagged for a closer look

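In 10 of 37 sets of 4 Notch RNAi libraries, 1 set for each eIF gene with counts in at least 2 of them, the highest or lowest library lay farther from its neighbour than Dixon's 95% limit for 4 samples allows. Chance flags about 1 in 20 such sets, and the genes of a library are not independent. Another 4 genes, eIF3d2, eIF3f2, eIF4E3 and eIF4E5, had counts in 1 library of the group and were left out, since the comparison then has a fixed outcome.

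Of the 10 cases 9 were in Notch RNAi replicate 4. It was the highest of the 4 for eIF2A at 437 CPM, eIF2Bbeta at 79.1, eIF2Bdelta at 44.0, eIF2Bepsilon at 72.7, eIF3a at 80.9, eIF3c at 202, eIF3d1 at 229 and eIF4E1 at 737 CPM. For eIF4B, which stimulates the helicase eIF4A, it was the lowest, at 77.6 CPM. These flags are on CPM, and the limit was not applied to TMM-scaled CPM. Notch RNAi replicate 4 had the largest TMM factor of all 13 libraries, 1.41. With TMM-scaled CPM eIF4E1 was at 405, 348, 322 and 523 in the 4 Notch RNAi libraries, and eIF2Bbeta at 29.3, 29.3, 27.4 and 56.1. That library also had the most detected genes of all 13, 9839, and the lowest VGlut, 401 CPM. Its sum of 5 glial genes, 757 CPM, was the highest, but 755 CPM of it was Gs2, with repo at 1.95 CPM, moody at 0.122 CPM and Eaat1 and alrm at 0. The part of these in the values was not tested. Without this library the median log2 fold change of the eIF genes in Notch RNAi against Control was -0.42, against -0.24 with it, and that of all genes was -0.16, against 0.03 with it.

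The other case was the second copy eIF4E6, at 29.9 CPM in Notch RNAi replicate 1, with 1.83 CPM in replicate 4 and 0 in the other 2 libraries.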

How the results depend on the processing

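No gene was called in any comparison by edgeR with TMM, and other settings called some. In Shal RNAi against Control 309 genes were called by DESeq2, 26 without the filter on low counts, 25 by voom with quality weights and 26 with only the groups compared. In Notch+Shal RNAi against Shal RNAi DESeq2 called 307, no filter 4, the replicate block 1 and only the groups compared 1. In Notch RNAi against Control DESeq2 called 32, TMMwsp 2, and no filter, voom with quality weights, the replicate block and leaving out Shal RNAi replicates 1 and 3 called 1 each. DESeq2 called 24 genes in Notch+Shal RNAi against Control and 33 in Notch+Shal RNAi against Notch RNAi, where no filter called 1 each. In the interaction DESeq2 called 118 and the replicate block 9. Of the eIF genes, DESeq2 called 2, 1 and 1 in Shal RNAi against Control, Notch+Shal RNAi against Shal RNAi and the interaction, and voom with quality weights called 1 in the first. Leaving out each library in turn called 0 to 146 genes in Shal RNAi against Control (146 without Shal RNAi replicate 2) and 0 to 1 eIF gene, 0 to 26 in Notch+Shal RNAi against Shal RNAi (26 without the same library), 0 to 2 in Notch RNAi against Control, 0 to 1 in Notch+Shal RNAi against Control, and 0 to 2 in Notch+Shal RNAi against Notch RNAi. The cause was not tested.

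Of 818 values of the 36 named changes under alternatives, 808 kept their direction and side of the threshold, 6 passed it and 4 reversed. The 6 were eIF4G2 in Shal RNAi against Control (DESeq2, voom with quality weights, without Shal RNAi replicate 2) and in the interaction (DESeq2), and eIF4EHP with DESeq2 in 2 comparisons. The 4 came from leaving out 1 library: in Notch+Shal RNAi against Control eIF3a ran from -0.14 to 1.98 and eIF4E5 from -7.21 to 9.63, and against Notch RNAi eIF2A ran from -0.84 to 1.52 and eIF4E5 from -5.26 to 5.06. With TMM-scaled CPM the Shal RNAi means were 483 for eIF4G2, 806 for eIF4EHP and 964 for eIF4H1, and the Control mean of summed eIF3 was 3232.

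Same-numbered libraries were not treated as paired. Over 18 pairs their deviations from the group means correlated at -0.18 to 0.24, with 5 over 0.1, and 7 of 13 libraries correlated best with their own number. No chance level was computed for these values, so they do not settle whether the libraries were paired. In the labels such libraries share only a number, so the replicate block corrects for nothing the design names.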
